A study of Homo sapiens with 12 samples.

Results

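Ribosome biogenesis factors are the proteins that make ribosomal RNA (rRNA), modify it, cut it and fold it into ribosomal subunits. A list of 42 such genes was followed through an RNA-seq series on THZ1, by taking the rows whose gene symbol is on the list. All 42 were found, among 57755 gene identifiers in each library, and all 42 passed the filter on low values (at least 1 FPKM in at least 2 libraries). FPKM, fragments per kilobase of transcript scaled to the mapped fragments of the library, is a level relative to all other RNA in the library. The list is one of gene function, with no threshold on measured values, although earlier results of these data were known when the list was made.

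The series holds 12 libraries of polyadenylated RNA from KYSE510 and TE7, both human lines of esophageal squamous cell carcinoma. THZ1 is a covalent inhibitor of the kinase CDK7, and at higher doses also of CDK12 and CDK13. Each line gave 1 library under each of 6 conditions, namely a DMSO control, a 50 nM dose of THZ1 held for 2, 4, 6 or 12 h, and a 200 nM dose held for 6 h. The DMSO libraries are titled 0 h but carry a time label of 12 h, and no DMSO library stands beside 2, 4 or 6 h. No genetic change is named for either line. The medium was RPMI-1640 for KYSE510 and DMEM for TE7, so line and medium cannot be told apart. The 2 lines served as replicates, and the p-values reflect no more than the spread between those libraries and lines.

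Ribosomes are built in the nucleolus, where RNA polymerase I (Pol I) transcribes a long precursor of rRNA. Small nucleolar ribonucleoproteins (snoRNPs) guide chemical changes of that precursor, box C/D particles for methylation and box H/ACA particles for pseudouridine. The small-subunit processome then folds and cuts the RNA of the small (40S) subunit, and other factors mature the large (60S) subunit. CDK7, a part of TFIIH, acts in transcription by RNA polymerase II, which makes the messenger RNAs of all these factors. Many genes of this kind are known targets of MYC, which binds the E-box CACGTG.

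Promoter windows were taken from RefSeq on GRCh38.p14, from 250 bases before to 50 bases after each start, while the expression tables use hg19. Entries were matched by symbol for 36 of the 42 members, and the others (BOP1, DDX18, NOLC1, NOP58, RRP12 and RRS1) are named only. The windows of 8 members are given as 80 bases, 60 before the start and 20 from it. These genes span the range of responses described further on. They do not show how common the E-box is, since most hold it in the 80 bases, against 30.6% of all matched members. GNL3 (chr3:52685972-52686051, plus strand), GNL2 (chr1:37595918-37595997, minus strand) and WDR43 (chr2:28894607-28894686, plus strand) fell between 50 and 200 nM. So did PNO1 (chr2:68157828-68157907, plus strand) and NOP16 (chr5:176388579-176388658, minus strand). DDX21 (chr10:68956587-68956666, plus strand) and FBL (chr19:39846360-39846439, minus strand) fell less, with dose differences of -1.06 and -0.92 as deposited. NHP2 (chr5:178153866-178153945, minus strand) is the member with the smallest dose difference. Capitals mark the E-box CACGTG, and each sequence reads 5′ to 3′ on the gene's strand.
GNL3: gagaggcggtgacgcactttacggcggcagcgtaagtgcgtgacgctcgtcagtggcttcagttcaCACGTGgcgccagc
GNL2: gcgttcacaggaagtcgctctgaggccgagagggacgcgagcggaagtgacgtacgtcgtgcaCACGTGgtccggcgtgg
WDR43: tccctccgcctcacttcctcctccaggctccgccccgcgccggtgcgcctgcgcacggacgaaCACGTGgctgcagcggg
PNO1: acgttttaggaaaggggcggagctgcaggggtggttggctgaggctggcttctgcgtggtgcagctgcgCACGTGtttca
DDX21: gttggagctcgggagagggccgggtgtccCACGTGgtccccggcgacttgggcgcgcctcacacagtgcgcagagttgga
FBL: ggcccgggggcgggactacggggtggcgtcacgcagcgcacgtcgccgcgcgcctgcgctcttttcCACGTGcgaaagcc
NOP16: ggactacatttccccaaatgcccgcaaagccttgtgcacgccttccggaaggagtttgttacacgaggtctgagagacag
NHP2: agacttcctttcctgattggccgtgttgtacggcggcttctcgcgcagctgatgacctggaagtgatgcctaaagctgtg

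The E-box lay in the 300-base window of 16 of the 36 matched members (44.4%), against 8.77% of the 27305 genes in the promoter table. In 15 of those 16 members the E-box nearest to a start began within 40 bases of it. In GNL2 and WDR43 it began at base 4 counted from the start, in GNL3 and FBL at base 7, in PNO1 at base 10 and in DDX21 at base -31. Within the 80-base windows, 11 members (30.6%) held one, against 3.39% of all genes. The GC box GGGCGG was found in 26 members (72.2%, against 48.3% of all genes) and CCAAT in 17 (47.2% against 39.7%). The ETS core CCGGAAG was found in 12 (33.3% against 12.2%), and TATAAA in 1, UTP20 (2.78% against 14.0%). Both strands were searched and none of the 5 motifs contains another. The member windows were also richer in G and C than all windows (median 64% against 58.7%), and the part of base composition in these shares was not tested. All members passed the filter on low values, whereas the promoter table was not limited to genes that did. The part of that difference in the shares was not tested either. A match describes letters and is no evidence of binding, and the absence of a match says nothing of a factor.

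The tables give no read counts, so the depth of each library is unknown. The authors' 95% bounds, which cover counting and assignment error only, lay by the median over libraries 1.30% (DDX21) to 9.32% (WDR12) above the FPKM of a member. The sum of FPKM ranged from 383975 to 729515 and was lowest in each line at 200 nM. The library labelled KYSE510 DMSO and both libraries at 200 nM stood apart. Over 15610 genes, KYSE510 DMSO correlated with its 2 h library at 0.879 (TE7 0.976), and 50 nM correlated with 200 nM at 6 h at 0.855 and 0.865 (4 h with 6 h 0.992 and 0.990). Squamous markers (10 genes, KRT5, TP63 and EPCAM among them) summed to 3043 to 5558 FPKM in KYSE510 and 2004 to 3098 in TE7. Of the 10, KRT14 was as low as 2.62 FPKM in KYSE510 and SOX2 as low as 0.975 FPKM in TE7. Fibroblast markers (6 genes) summed to 7.15 to 11.4 FPKM in KYSE510 and 3.60 to 8.11 in TE7, leukocyte markers (4) to at most 0.697 and endothelial markers (3 found) to at most 0.859. Since these are bulk RNA samples, fewer cells and less RNA per cell cannot be told apart, and a change of FPKM is a change of share.

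At 50 nM the members were mostly above DMSO from 2 to 6 h, and at 200 nM most fell below both DMSO and the matched 50 nM libraries. The median change of the 42 members on the log2(FPKM + 1) scale was 0.37 at 2 h, 0.45 at 4 h and 0.46 at 6 h of 50 nM, where all 15610 tested genes had medians of 0.00, -0.06 and -0.15. At 200 nM it was -0.92, against -0.65 for all genes. Directly between the doses at 6 h it was -1.46, against -0.46 for all genes. Every comparison with DMSO used the same 2 DMSO libraries, whereas the size of the direct dose difference used none. The DMSO libraries did enter the estimate of spread behind the p-values of that difference.

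**Figure D1:**
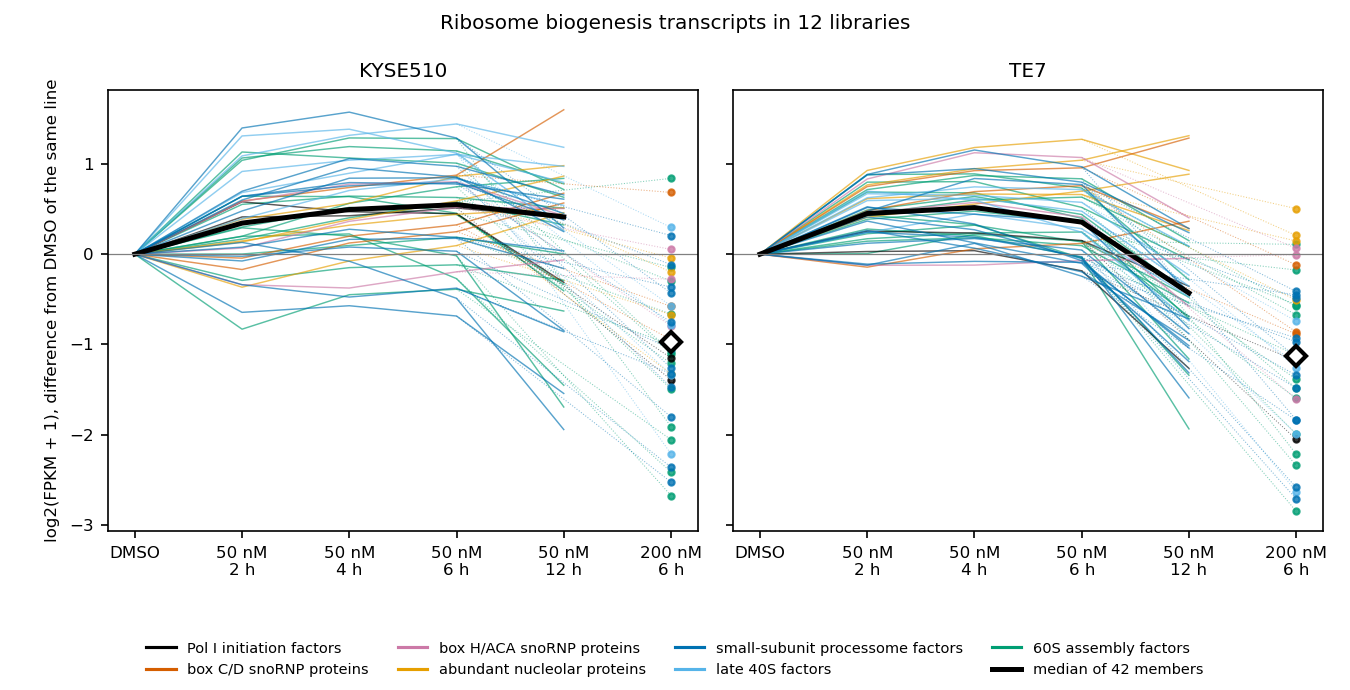
Change of each of the 42 members from DMSO of the same line, on the log2(FPKM + 1) scale (vertical axis), in the libraries at 50 nM (2, 4, 6 and 12 h, joined by lines) and at 200 nM (6 h, points; dotted lines join them to 6 h at 50 nM) of KYSE510 (left) and TE7 (right). Colours mark the role groups, the thick line and the open diamond mark the median. The median lies above 0 from 2 to 6 h in both lines, separates at 12 h (0.41 in KYSE510, -0.43 in TE7) and is -0.98 and -1.13 at 200 nM.

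Few of the early rises at 50 nM passed the test for single genes. In limma's test with Benjamini-Hochberg adjustment over all 15610 genes, 0 of 42 members were called higher at 2 h (0.0128% of all genes were) and 0 at 4 h (0.0256%). At 6 h 3 members rose (7.14%, against 0.692% of all genes), namely NOP16, DDX21 and WDR43, and 0 fell. At an unadjusted p under 0.05, 12 members differed at 2 h, 15 at 4 h and 13 at 6 h, against 1683, 2466 and 3541 of the 15610 genes. Above DMSO in both lines were 30 members at 2 h, 34 at 4 h and 27 at 6 h, where 24.7%, 22.3% and 19.4% of all genes were. The 6 h count depended on single libraries. It was 0 without any 1 of the 6 libraries at 2, 4 or 6 h of 50 nM, 1 without KYSE510 DMSO, 6 without TE7 DMSO and 7 without either 200 nM library. Without TE7 DMSO 4 members were called at 2 h and 6 at 4 h, and without either 200 nM library 3 were called at 4 h. With the 3 libraries that stood apart left out, a setting added after seeing the data, DMSO rested on the TE7 library alone. The members' medians were then 0.32, 0.42 and 0.33 at 2, 4 and 6 h. Shares of all genes are not given for the counts with a library left out, here or further on.

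The fall at 200 nM was called in many more members. Against DMSO 25 of 42 fell (59.5%, against 35.3% of all genes) and 0 rose (3.22%). Against 50 nM at the same 6 h, 31 fell (73.8%, against 21.9% of all genes) and 0 rose (2.94%). In the dose comparison 40 members were lower in both lines, where 55.3% of all genes were. Each line held 41 members whose 200 nM library lay below its 50 nM library at 6 h, the exceptions being BOP1 in KYSE510 and NHP2 in TE7, where 69.3% and 71.7% of all genes did. In 23 members both libraries at 200 nM lay below all 10 other libraries, as they did in 18.5% of all genes. The count of 31 was 16 without either of the 50 nM libraries at 6 h, and 28 to 35 without any other single library. The calls given for single members are those of the values as deposited unless another scaling is named, and 17 of the 31 passed under all 4 scalings described further on.

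**Figure D2:**
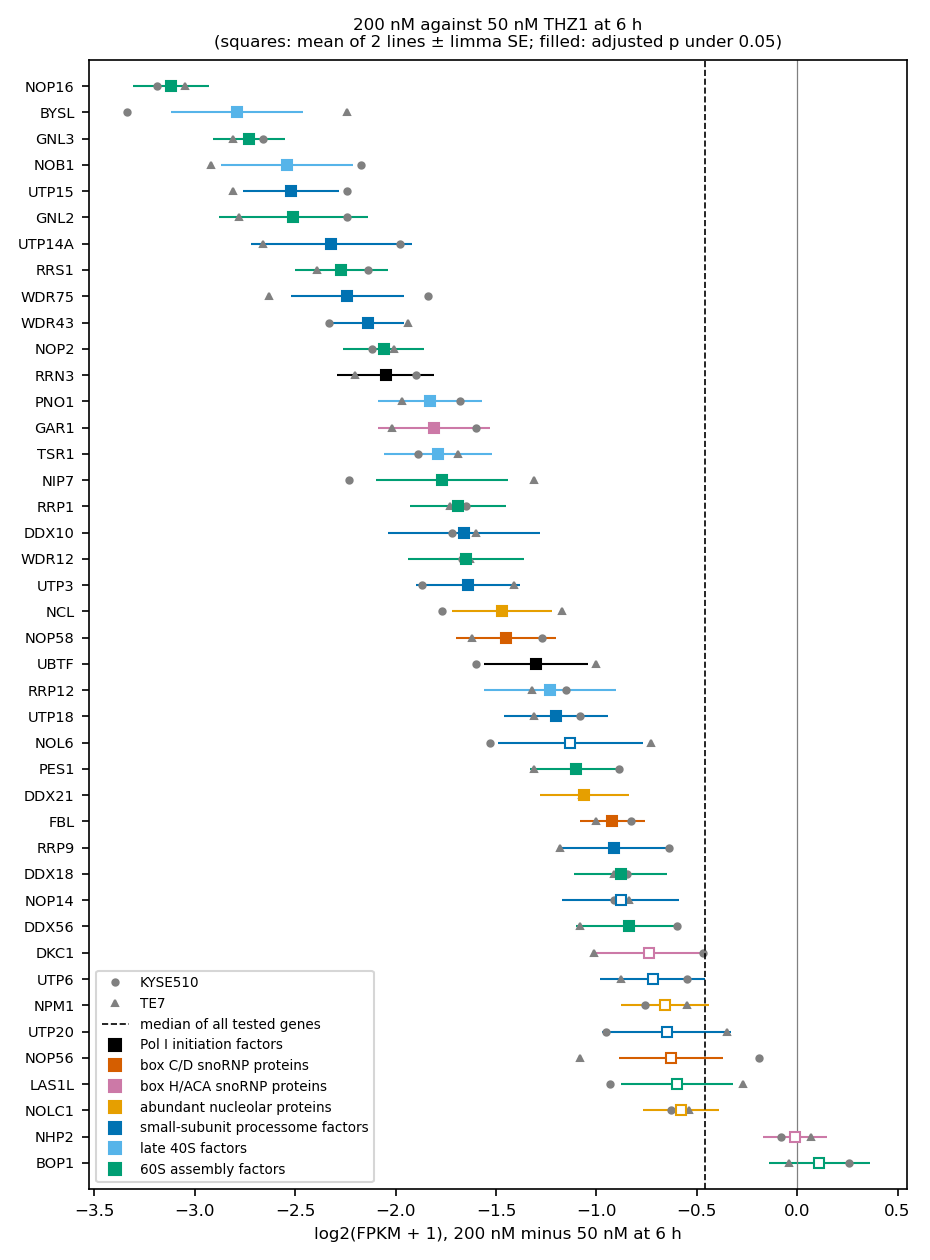
Difference between 200 nM and 50 nM at 6 h for the 42 members, on the log2(FPKM + 1) scale (horizontal axis), sorted by size. Squares are the mean of the 2 lines with the limma standard error (filled where the adjusted p was under 0.05), small circles KYSE510, small triangles TE7, and the dashed line is the median of all tested genes, -0.46. NOP16 lies farthest down at -3.12, and NHP2 (-0.01) and BOP1 (0.11) lie nearest 0.

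Both factors that start Pol I transcription were called lower at 200 nM as deposited, but the calls of UBTF were lost under each of the 3 other scalings. UBTF binds the promoters of the rRNA genes. In KYSE510 it measured 25.1 FPKM in DMSO, 38.1, 35.2, 34.7 and 20.04 at 2, 4, 6 and 12 h of 50 nM, and 10.8 at 200 nM. In TE7 it measured 31.7 FPKM in DMSO, 32.4, 32.6, 27.8 and 12.6 at 2, 4, 6 and 12 h of 50 nM, and 13.4 at 200 nM. The KYSE510 library at 200 nM was the lowest of its line, while the TE7 library at 200 nM was slightly above that at 12 h. UBTF differed between the doses by -1.30 ± 0.26 (SE, 2 lines; adjusted p = 0.0104) and from DMSO at 200 nM by -1.17 ± 0.26 (adjusted p = 0.0105). Under the other scalings its dose difference was -0.64 to -0.84 (adjusted p from 0.0513 to 0.135) and its difference from DMSO -0.10 to -0.82 (adjusted p from 0.077 to 0.813). RRN3, which joins Pol I to those promoters, measured 15.7 FPKM in DMSO, 21.2, 21.4, 22.8 and 21.0 at 2, 4, 6 and 12 h of 50 nM, and 5.36 at 200 nM in KYSE510. In TE7 RRN3 had 15.4 FPKM in DMSO, 18.6, 18.3, 17.2 and 11.8 at 2, 4, 6 and 12 h of 50 nM, and 2.95 at 200 nM. Both libraries at 200 nM lay below all others of RRN3. Its dose difference was -2.05 ± 0.24 (adjusted p = 0.00142). RRN3 is uncertain, because its 3 near-identical pseudogene copies held from 12.1% to 80.6% of the summed FPKM of gene and copies, both extremes being at 200 nM, and reads could be split between them.

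Of the 3 core proteins of box C/D snoRNPs, NOP56 was called higher at 12 h as deposited, and FBL and NOP58 were called too under median-of-ratios and upper-quartile scaling. NOP56, a scaffold of the particle, had in KYSE510 158 FPKM in DMSO, 238, 265, 291 and 482 at 2, 4, 6 and 12 h of 50 nM, and 255 at 200 nM. In TE7 NOP56 had 175 FPKM in DMSO, 295, 334, 341 and 429 at 2, 4, 6 and 12 h of 50 nM, and 161 at 200 nM. All 8 libraries at 50 nM lay above DMSO, and in each line 12 h was the highest. NOP56 had risen by 1.44 ± 0.26 at 12 h (adjusted p = 0.00596), and its dose difference of -0.63 ± 0.26 did not pass (adjusted p = 0.109), with -0.19 in KYSE510 and -1.08 in TE7. FBL, fibrillarin, is the methyltransferase of the particle. In KYSE510 it measured 265 FPKM in DMSO, 236, 289, 315 and 394 at 2, 4, 6 and 12 h of 50 nM, and 177 at 200 nM. TE7 had 231 FPKM in DMSO, 209, 241, 251 and 298 at 2, 4, 6 and 12 h of 50 nM, and 124 at 200 nM. Both 200 nM libraries lay below all others of FBL, by -0.92 ± 0.16 against 50 nM (adjusted p = 0.00564). NOP58, the other scaffold protein, fell by 1.45 ± 0.25 (adjusted p = 0.00593).

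The 3 box H/ACA proteins responded unequally. NHP2, an RNA-binding core protein, was called changed in no comparison of the deposited values. Its levels in KYSE510 were 127 FPKM in DMSO, 100.0, 97.4, 110.5 and 121 at 2, 4, 6 and 12 h of 50 nM, and 104 at 200 nM. Its levels in TE7 were 91.6 FPKM in DMSO, 84.0, 84.1, 87.1 and 88.6 at 2, 4, 6 and 12 h of 50 nM, and 91.2 at 200 nM. NHP2 was highest in DMSO in both lines, and the doses overlapped. The dose difference was -0.01 ± 0.16 (adjusted p = 0.978). DKC1, dyskerin, the pseudouridine synthase, went in KYSE510 through 53.8 FPKM in DMSO, 56.4, 69.5, 77.6 and 76.8 at 2, 4, 6 and 12 h of 50 nM, and 55.8 at 200 nM. TE7 had for DKC1 59.98 FPKM in DMSO, 108, 132, 127 and 79.7 at 2, 4, 6 and 12 h of 50 nM, and 62.8 at 200 nM. At 200 nM DKC1 was within 0.06 of DMSO in both lines (0.05 and 0.06), and its fall from 50 nM, -0.74 ± 0.27, did not pass (adjusted p = 0.0847). GAR1, another core protein of the particle, fell by 1.81 ± 0.28 between the doses (adjusted p = 0.00392). GAR1 had 30.8 FPKM at 50 nM and 9.52 at 200 nM in KYSE510, and 21.0 and 4.41 in TE7.

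The abundant nucleolar proteins included the 2 members with the highest mean FPKM, NPM1 and NCL. NPM1, nucleophosmin, a nucleolar chaperone, was the most abundant member. It measured 1539 FPKM in DMSO, 1194, 1461, 1644 and 2119 at 2, 4, 6 and 12 h of 50 nM, and 967 at 200 nM in KYSE510. The TE7 libraries had 595 FPKM in DMSO, 791, 875, 967 and 1101 at 2, 4, 6 and 12 h of 50 nM, and 658 at 200 nM. NPM1 was highest at 12 h in both lines, and at 200 nM lay below DMSO in KYSE510 and above it in TE7. Its 45 pseudogenes held at most 0.829% of the summed FPKM. NCL, nucleolin, an RNA-binding protein of the nucleolus, measured 382 FPKM in DMSO, 424, 478, 519.7 and 546 at 2, 4, 6 and 12 h of 50 nM, and 152 at 200 nM in KYSE510. In TE7 NCL measured 371 FPKM in DMSO, 569, 589.9, 588 and 445 at 2, 4, 6 and 12 h of 50 nM, and 260.5 at 200 nM. NCL lay above DMSO in all 8 libraries at 50 nM and below all 10 others in both at 200 nM (dose difference -1.47 ± 0.25, adjusted p = 0.00564). DDX21, a helicase that acts in rRNA transcription and processing, had 54.8 FPKM in DMSO, 72.1, 81.5, 101 and 109 at 2, 4, 6 and 12 h of 50 nM, and 47.7 at 200 nM in KYSE510. TE7 had for DDX21 55.5 FPKM in DMSO, 106, 127, 136 and 106 at 2, 4, 6 and 12 h of 50 nM, and 64.2 at 200 nM. DDX21 rose at 6 h (1.07 ± 0.22, adjusted p = 0.0387) and at 12 h (0.95 ± 0.22, adjusted p = 0.0145). Its 200 nM libraries were near DMSO (-0.20 in KYSE510 and 0.21 in TE7), so that its dose difference of -1.06 ± 0.22 (adjusted p = 0.0107) was the size of its rise at 50 nM. NOLC1, a chaperone of snoRNPs, measured 65.4 FPKM in DMSO, 71.9, 85.6, 99.0 and 120.0 at 2, 4, 6 and 12 h of 50 nM, and 63.5 at 200 nM in KYSE510. In TE7 NOLC1 had 63.9 FPKM in DMSO, 109.5, 124, 133 and 160.3 at 2, 4, 6 and 12 h of 50 nM, and 91.1 at 200 nM. Its level was highest at 12 h in both lines and above DMSO in all 8 libraries at 50 nM. NOLC1 rose at 12 h by 1.09 ± 0.19 (adjusted p = 0.00592).

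Of the 12 small-subunit processome factors, 1 was called higher at 6 h of 50 nM and 8 lower between the doses as deposited. Of all genes 0.692% and 21.9% were called so. The falls of UTP14A, UTP15, UTP3, WDR43 and WDR75 passed under all 4 scalings. Those of RRP9 and UTP18 were lost under the 3 other scalings, and that of DDX10 under all but median of ratios. The rise, of WDR43, was lost with equal sums of FPKM. WDR43, a subunit of the part of the processome that joins the precursor first, measured 35.1 FPKM in DMSO, 53.7, 69.2, 64.3 and 41.9 at 2, 4, 6 and 12 h of 50 nM, and 12.0 at 200 nM in KYSE510. TE7 had for WDR43 26.8 FPKM in DMSO, 50.1, 52.6, 47.3 and 31.8 at 2, 4, 6 and 12 h of 50 nM, and 11.6 at 200 nM. Both 200 nM libraries lay below all others and all 8 libraries at 50 nM lay above DMSO. WDR43 rose by 0.83 ± 0.18 at 6 h (adjusted p = 0.0454) and differed between the doses by -2.14 ± 0.18 (adjusted p = 0.000591). UTP15, a subunit of the same module, had 7.99 FPKM in DMSO, 13.6, 17.8, 16.7 and 13.2 at 2, 4, 6 and 12 h of 50 nM, and 2.75 at 200 nM in KYSE510. In TE7 UTP15 had 6.81 FPKM in DMSO, 13.4, 16.4, 14.3 and 8.50 at 2, 4, 6 and 12 h of 50 nM, and 1.18 at 200 nM. UTP15 also lay above DMSO in all 8 libraries at 50 nM and lowest in both at 200 nM, with a dose difference of -2.52 ± 0.24 (adjusted p = 0.000832), and the rise at 6 h, 0.97 ± 0.24, just missed the threshold (adjusted p = 0.0633).

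WDR75, another subunit of that module, lay below DMSO at all times in KYSE510. It measured there 31.0 FPKM in DMSO, 19.5, 20.6, 18.9 and 9.98 at 2, 4, 6 and 12 h of 50 nM, and 4.56 at 200 nM. In TE7 the values of WDR75 were 30.7 FPKM in DMSO, 33.4, 34.7, 31.7 and 16.2 at 2, 4, 6 and 12 h of 50 nM, and 4.28 at 200 nM. WDR75 was called lower at 12 h (-1.21 ± 0.28, adjusted p = 0.0148) and at 200 nM against DMSO (-2.56 ± 0.28, adjusted p = 0.00067). UTP3 binds the early precursor. KYSE510 had for UTP3 17.6 FPKM in DMSO, 19.3, 16.6, 12.2 and 3.83 at 2, 4, 6 and 12 h of 50 nM, and 2.62 at 200 nM. TE7 had for UTP3 13.7 FPKM in DMSO, 20.2, 17.6, 13.0 and 6.16 at 2, 4, 6 and 12 h of 50 nM, and 4.27 at 200 nM. UTP3 changed by -1.49 ± 0.26 at 12 h (adjusted p = 0.00557) and by -1.92 ± 0.26 at 200 nM (adjusted p = 0.00139).

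UTP20, a very large processome protein, was the member with the lowest mean level. It had 8.05 FPKM in DMSO, 6.16, 5.51, 5.97 and 3.99 at 2, 4, 6 and 12 h of 50 nM, and 2.62 at 200 nM in KYSE510. In TE7 UTP20 had 6.19 FPKM in DMSO, 8.28, 6.85, 5.70 and 2.15 at 2, 4, 6 and 12 h of 50 nM, and 4.26 at 200 nM. At 200 nM UTP20 was the lowest of its line in KYSE510, while in TE7 12 h was lowest. UTP20 changed by -1.03 ± 0.32 at 12 h (adjusted p = 0.0465), and by -0.65 ± 0.32 between the doses, which did not pass (adjusted p = 0.174). UTP6, a processome subunit, measured 36.4 FPKM in DMSO, 38.5, 44.3, 41.5 and 37.4 at 2, 4, 6 and 12 h of 50 nM, and 28.1 at 200 nM in KYSE510. In TE7 UTP6 measured 40.4 FPKM in DMSO, 37.3, 38.1, 37.8 and 19.5 at 2, 4, 6 and 12 h of 50 nM, and 20.1 at 200 nM. The KYSE510 libraries at 50 nM lay slightly above DMSO and those of TE7 below it. UTP6 had changes at 2, 4 and 6 h of 50 nM of -0.02, 0.10 and 0.05, and its dose difference was -0.72 ± 0.26 (adjusted p = 0.082).

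The remaining processome factors ranged widely. UTP14A, a partner of a processome helicase, went from 12.8 to 2.49 FPKM between the doses in KYSE510 and from 16.8 to 1.81 in TE7 (-2.32 ± 0.40, adjusted p = 0.00563). Its close copy UTP14C was listed at 0.204 to 6.33 FPKM, and reads could be split between them. DDX10, a helicase, fell by 1.66 ± 0.38 (adjusted p = 0.0171), as did UTP18 (-1.20 ± 0.26, adjusted p = 0.0132) and RRP9, a protein of the U3 snoRNP (-0.91 ± 0.27, adjusted p = 0.045). NOL6 (-1.13 ± 0.36, adjusted p = 0.0565) and NOP14 (-0.88 ± 0.29, adjusted p = 0.0629) did not pass.

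All 5 late 40S factors were called lower between the doses as deposited, as were 21.9% of all genes. All but RRP12 were also called under the 3 other scalings. The median rise of the 5 was the largest of the role groups in KYSE510 (1.11 at 6 h, against 0.48 in TE7). BYSL, bystin, which binds the small-subunit precursor, measured 12.2 FPKM in DMSO, 31.7, 33.4, 27.7 and 14.8 at 2, 4, 6 and 12 h of 50 nM, and 1.84 at 200 nM in KYSE510. In TE7 BYSL had 12.1 FPKM in DMSO, 20.2, 18.8, 14.4 and 6.83 at 2, 4, 6 and 12 h of 50 nM, and 2.28 at 200 nM. BYSL was highest at 2 or 4 h and then declined, and its 200 nM libraries lay below all others. Its dose difference was -2.79 ± 0.33 (adjusted p = 0.00152), with -3.34 in KYSE510 and -2.24 in TE7. NOB1, the endonuclease that makes the last cut of the small-subunit rRNA, had 38.8 FPKM in DMSO, 51.2, 63.9, 70.0 and 56.8 at 2, 4, 6 and 12 h of 50 nM, and 14.8 at 200 nM in KYSE510. TE7 had for NOB1 62.2 FPKM in DMSO, 73.6, 85.0, 75.8 and 44.4 at 2, 4, 6 and 12 h of 50 nM, and 9.19 at 200 nM. NOB1 fell by 2.54 ± 0.33 (adjusted p = 0.002). PNO1, the partner that binds next to that cut, lay above DMSO in all 8 libraries at 50 nM and fell by 1.83 ± 0.26 between the doses (adjusted p = 0.00275). TSR1, a GTPase-like protein of the late precursor, measured 30.2 FPKM in DMSO, 57.9, 63.2, 66.1 and 53.2 at 2, 4, 6 and 12 h of 50 nM, and 17.1 at 200 nM in KYSE510. In TE7 TSR1 measured 26.1 FPKM in DMSO, 39.9, 40.7, 36.7 and 20.2 at 2, 4, 6 and 12 h of 50 nM, and 10.7 at 200 nM. Both libraries at 200 nM lay below all others, and TSR1 fell by 1.79 ± 0.27 (adjusted p = 0.00331). RRP12, an export factor, differed between the doses by -1.23 ± 0.33 as deposited (adjusted p = 0.0295) and by -0.60 to -0.79 under the other scalings (adjusted p from 0.121 to 0.214), and at 200 nM it was above DMSO in KYSE510 (0.30) and below it in TE7 (-0.74).

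**Figure D3:**
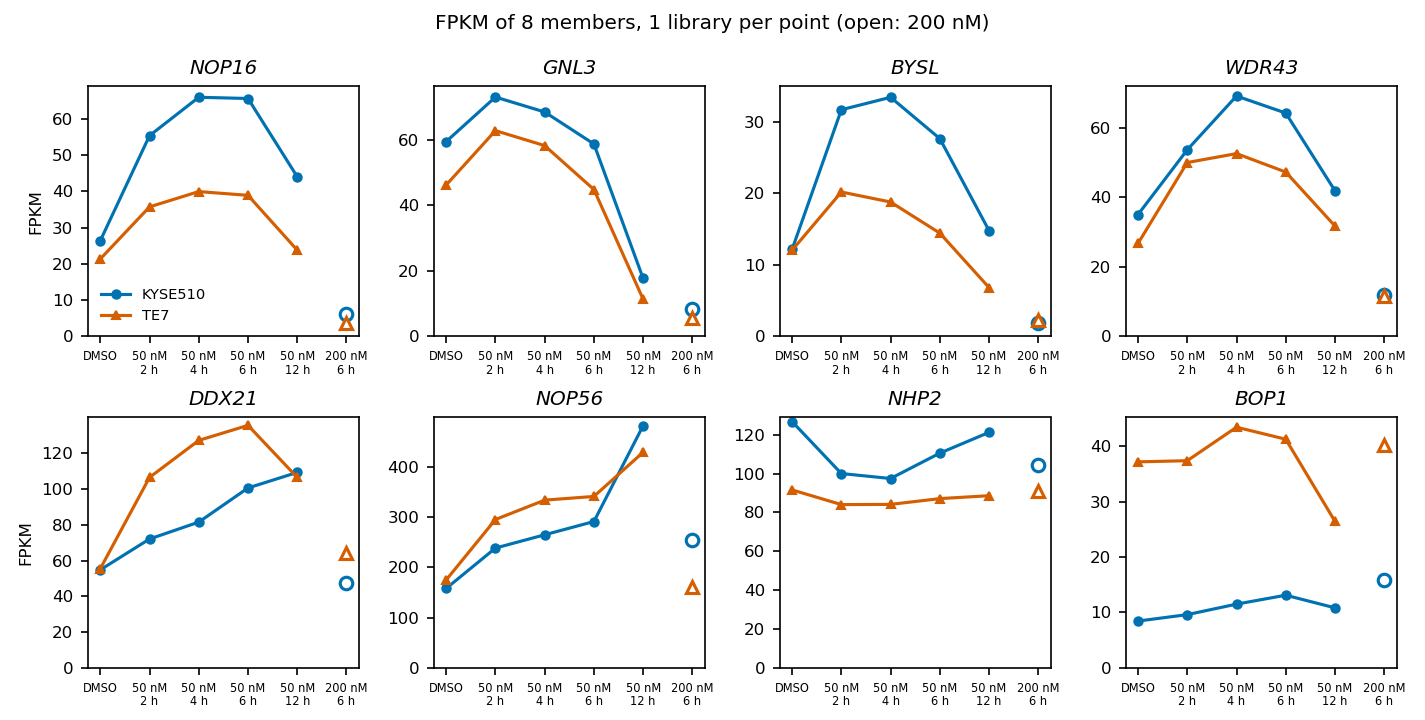
FPKM (vertical axes, from 0) of 8 members in the 12 libraries, with KYSE510 as circles and TE7 as triangles, 1 library per point, lines through DMSO and 50 nM, and open symbols for 200 nM. NOP16, GNL3, BYSL and WDR43 lie lowest at 200 nM in both lines, DDX21 and NOP56 rise at 50 nM, and NHP2 and BOP1 show no fall from 50 to 200 nM that both lines share.

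The 13 factors of the 60S subunit held both ends of the dose comparison. NOP16, a protein of early large-subunit precursors, measured 26.4 FPKM in DMSO, 55.3, 65.9, 65.6 and 44.0 at 2, 4, 6 and 12 h of 50 nM, and 6.28 at 200 nM in KYSE510. In TE7 NOP16 had 21.3 FPKM in DMSO, 35.7, 39.9, 38.9 and 23.8 at 2, 4, 6 and 12 h of 50 nM, and 3.80 at 200 nM. All 8 libraries at 50 nM exceeded DMSO, and both at 200 nM lay below the 10 others. NOP16 rose at 6 h by 1.06 ± 0.19 (adjusted p = 0.029) and had the largest dose difference of the list, -3.12 ± 0.19 (adjusted p = 0.000432). GNL3, nucleostemin, a nucleolar GTPase, measured 59.5 FPKM in DMSO, 73.0, 68.5, 58.7 and 17.7 at 2, 4, 6 and 12 h of 50 nM, and 8.46 at 200 nM in KYSE510. In TE7 GNL3 had 46.2 FPKM in DMSO, 62.8, 58.2, 44.8 and 11.3 at 2, 4, 6 and 12 h of 50 nM, and 5.55 at 200 nM. It was highest at 2 h, back near DMSO at 6 h (-0.03 ± 0.18) and far below it at 12 h (-1.82 ± 0.18, adjusted p = 0.00124). At 200 nM GNL3 fell by 2.76 ± 0.18 against DMSO (adjusted p = 0.000322).

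BOP1, of the PeBoW complex that processes large-subunit rRNA, was not called lower, and was called higher at 200 nM than at 50 nM only under upper-quartile scaling. In KYSE510 BOP1 measured 8.45 FPKM in DMSO, 9.61, 11.5, 13.1 and 10.8 at 2, 4, 6 and 12 h of 50 nM, and 15.9 at 200 nM. TE7 had for BOP1 37.2 FPKM in DMSO, 37.4, 43.4, 41.2 and 26.4 at 2, 4, 6 and 12 h of 50 nM, and 40.1 at 200 nM. The lines differed in level throughout, and the dose difference was 0.11 ± 0.25 (adjusted p = 0.76). Its partners did fall between the doses, with -1.10 ± 0.23 for PES1 (adjusted p = 0.0122) and -1.65 ± 0.29 for WDR12 (adjusted p = 0.00598). In KYSE510 PES1 and WDR12 were highest in DMSO, the library that stood apart, and in TE7 they were highest at 6 h.

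NOP2, which methylates large-subunit rRNA, measured 28.8 FPKM in DMSO, 64.3, 61.3, 58.9 and 45.1 at 2, 4, 6 and 12 h of 50 nM, and 12.8 at 200 nM in KYSE510. In TE7 NOP2 had 47.8 FPKM in DMSO, 83.9, 84.2, 68.9 and 45.7 at 2, 4, 6 and 12 h of 50 nM, and 16.4 at 200 nM. Its libraries at 200 nM were the lowest of each line. NIP7, a binding partner in large-subunit maturation, had 26.5 FPKM in DMSO, 56.5, 61.8, 59.8 and 46.2 at 2, 4, 6 and 12 h of 50 nM, and 11.9 at 200 nM in KYSE510. For NIP7 in TE7 the levels were 43.1 FPKM in DMSO, 80.3, 80.7, 72.3 and 35.1 at 2, 4, 6 and 12 h of 50 nM, and 28.5 at 200 nM. Both genes lay above DMSO at all 4 times of 50 nM in KYSE510, and their dose differences were -2.06 ± 0.20 for NOP2 (adjusted p = 0.000832) and -1.77 ± 0.33 for NIP7 (adjusted p = 0.00764). GNL2, a GTPase of the large-subunit precursor, had in KYSE510 31.2 FPKM in DMSO, 36.0, 46.6, 53.1 and 56.7 at 2, 4, 6 and 12 h of 50 nM, and 10.4 at 200 nM. In TE7 GNL2 had 35.4 FPKM in DMSO, 50.2, 55.8, 48.4 and 25.9 at 2, 4, 6 and 12 h of 50 nM, and 6.18 at 200 nM. GNL2 was thus highest at 12 h in KYSE510 and at 4 h in TE7, and its dose difference was -2.51 ± 0.37 (adjusted p = 0.00336). RRS1, which acts in the assembly of the 5S particle, measured 12.5 FPKM in DMSO, 14.5, 14.8, 10.2 and 3.92 at 2, 4, 6 and 12 h of 50 nM, and 1.53 at 200 nM in KYSE510. In TE7 RRS1 had 18.5 FPKM in DMSO, 30.4, 30.2, 24.7 and 10.9 at 2, 4, 6 and 12 h of 50 nM, and 3.89 at 200 nM. At 200 nM both libraries lay below all others, and RRS1 fell by 2.27 ± 0.23 (adjusted p = 0.000897) and so did RRP1 (-1.69 ± 0.24, adjusted p = 0.00273).

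DDX56, a helicase, was the 60S factor with the highest mean level. It measured 44.8 FPKM in DMSO, 70.5, 70.3, 61.8 and 33.6 at 2, 4, 6 and 12 h of 50 nM, and 40.4 at 200 nM in KYSE510. In TE7 DDX56 had 62.6 FPKM in DMSO, 76.2, 72.4, 61.1 and 24.1 at 2, 4, 6 and 12 h of 50 nM, and 28.3 at 200 nM. In both lines 12 h, and not 200 nM, was the lowest. The helicases DDX18 (-0.88 ± 0.23, adjusted p = 0.0268) and DDX56 (-0.84 ± 0.26, adjusted p = 0.0471) fell as well. Copies of DDX18 held up to 7.54% of its summed FPKM. LAS1L, a nuclease that cuts between the large-subunit rRNAs, measured 23.1 FPKM in DMSO, 34.4, 36.7, 36.3 and 33.4 at 2, 4, 6 and 12 h of 50 nM, and 18.6 at 200 nM in KYSE510. In TE7 LAS1L had 32.4 FPKM in DMSO, 35.9, 36.9, 34.6 and 21.9 at 2, 4, 6 and 12 h of 50 nM, and 28.6 at 200 nM. Its KYSE510 library at 200 nM was the lowest of that line, while in TE7 12 h was lowest, and the dose difference was not called (-0.60 ± 0.28, adjusted p = 0.16).

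**Figure D4:**
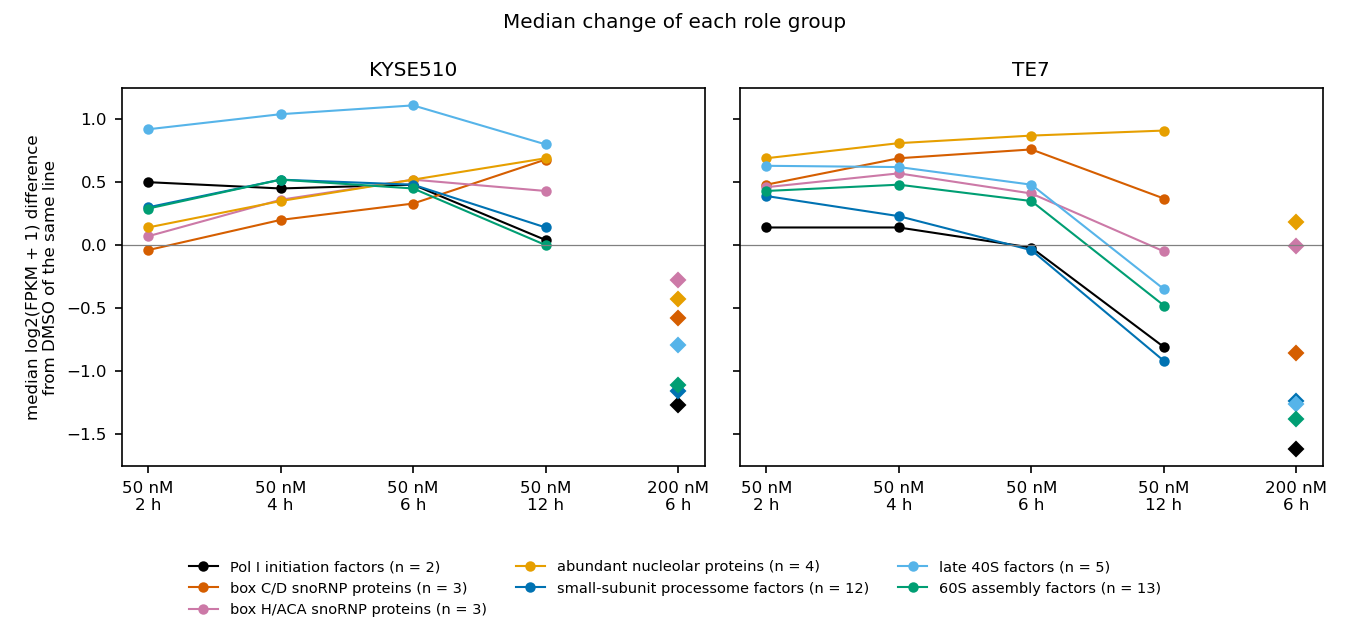
Median change from DMSO of the same line, on the log2(FPKM + 1) scale (vertical axis), for each of the 7 role groups in KYSE510 (left) and TE7 (right), with circles for 50 nM and diamonds for 200 nM. At 12 h the abundant nucleolar proteins have medians of 0.69 and 0.91, while the processome factors have 0.14 in KYSE510 and -0.92 in TE7.

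At 12 h of 50 nM members were called in both directions as deposited, with the lower calls depending on the scaling. Called higher were NOP56, NOLC1 and DDX21 (3 of 42, against 3.27% of all genes). Called lower were 8 of 42 (19.0%, against 25.2% of all genes), namely the 60S factors GNL3, RRS1, DDX56 and RRP1 and the processome factors UTP3, UTP18, WDR75 and UTP20. Of these 8 only GNL3 was also called lower under median-of-ratios or upper-quartile scaling. The members' median was -0.04, against -0.42 for all genes, and it was 0.41 in KYSE510 and -0.43 in TE7. Between 6 and 12 h the median was -0.53, against -0.26 for all genes, and 33 members (78.6%) were lower at 12 h in both lines, as were 58.7% of all genes. Only GNL3 was called, at -1.79 ± 0.18 (adjusted p = 0.0271), or 2.38% of members against 0.794% of all genes. Higher at 12 h than at 6 h in both lines were 5 members (11.9%), against 18.0% of all genes, namely FBL, NHP2, NOLC1, NOP56 and NPM1. The count of 8 lower was 3 without the TE7 library at 12 h and 5 without TE7 DMSO or without any 1 of the 6 libraries at 2, 4 or 6 h. The count of 3 higher was 5 without either 200 nM library. The call of GNL3 from 6 to 12 h was lost without any 1 of the 8 libraries at 50 nM (adjusted p from 0.0948 to 0.513).

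The time of the highest level among DMSO and 50 nM also differed between the lines. In KYSE510 12 members were highest at 4 h, 12 at 6 h and 8 at 12 h. In TE7 12 members were highest at 2 h, 20 at 4 h and 4 at 12 h. The 4 highest at 12 h in TE7 (FBL, NOLC1, NOP56 and NPM1) were also highest then in KYSE510. Together the members held 0.717% of all FPKM in KYSE510 DMSO, 0.961% at 12 h and 0.581% at 200 nM. In TE7 their share was 0.439% in DMSO, 0.639% at 4 h, 0.469% at 12 h and 0.425% at 200 nM. NPM1, NCL, NOP56 and FBL weigh most in these sums.

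How many members fell at 200 nM depended on how libraries were put on a common scale, and the median of all genes also differed by scaling. The median of all genes at 200 nM against DMSO was -0.65 as deposited, -0.05 after median-of-ratios scaling, 0.19 after upper-quartile scaling and -0.38 with equal sums of FPKM. Against DMSO 25 members were called lower and 0 higher as deposited, and 11 lower and 5 higher by median of ratios. By upper quartile 8 were lower and 8 higher, and with equal sums 15 were lower. Of all genes 35.3%, 13.1%, 8.87% and 21.9% were called lower in that order, and 3.22%, 11.6%, 18.5% and 5.37% higher. By median of ratios the higher members were BOP1, DDX21, NHP2, NOLC1 and NOP56, joined by DKC1, NPM1 and RRP9 under upper-quartile scaling. The members' own median was -0.92, -0.21, 0.10 and -0.58, and relative to all genes -0.27, -0.16, -0.09 and -0.21. FBL, called lower as deposited, changed sign under median-of-ratios scaling, as did FBL, NCL, NOP58, PES1, PNO1 and TSR1 under upper-quartile scaling. The called falls of BYSL, GNL3, NOP16, RRN3, RRS1, UTP14A, UTP3 and WDR75 passed under all 4. Between the doses no called member changed sign, and the numbers lower were 31, 22, 17 and 18. Of all genes 21.9%, 10.2%, 7.84% and 9.02% were called lower there. The member medians relative to all genes were -0.99, -0.84, -0.81 and -0.85. The 17 called under all 4 scalings were BYSL, GAR1, GNL2, GNL3, NOB1, NOP16, NOP2, PNO1, RRN3, RRP1, RRS1, TSR1, UTP14A, UTP15, UTP3, WDR43 and WDR75. The calls of DDX18, DDX21, DDX56, FBL, PES1, RRP12, RRP9, UBTF and UTP18 were lost under each of the 3 other scalings. Under upper-quartile scaling BOP1 and NHP2 were called higher at 200 nM than at 50 nM, as were 10.7% of all genes.

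**Figure D5:**
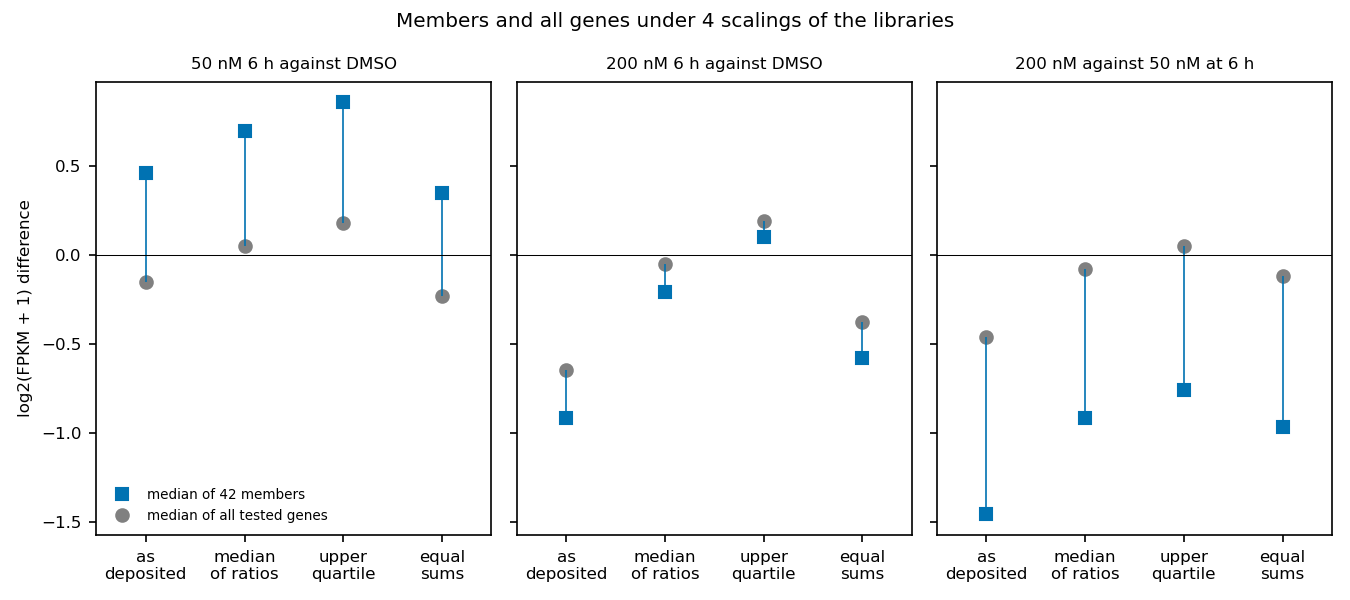
Median of the 42 members (squares) and of all tested genes (circles) on the log2(FPKM + 1) scale (vertical axis) under 4 scalings of the libraries (horizontal axis), for 50 nM at 6 h against DMSO, 200 nM against DMSO and 200 nM against 50 nM. The members lie above all genes by 0.58 to 0.68 at 50 nM, and below them by 0.09 to 0.27 and by 0.81 to 0.99 in the other panels.

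The early rise at 50 nM kept its direction under these scalings, with member medians at 6 h of 0.46, 0.70, 0.86 and 0.35 in the same order. The members called higher at 6 h numbered 3, 4, 8 and 0, against 0.692%, 0.894%, 1.42% and 0.351% of all genes. At 12 h the calls turned on the scaling, with 3 higher and 8 lower as deposited and 16 and 1 by median of ratios. They were 21 and 1 by upper quartile, and 3 and 9 with equal sums. Of all genes 3.27%, 11.7%, 18.8% and 1.94% were called higher at 12 h in that order, and 25.2%, 10.5%, 7.08% and 28.2% lower. DDX56 and RRP1, called lower at 12 h as deposited, changed sign under upper-quartile scaling. GNL3, called lower, and DDX21, NOLC1 and NOP56, called higher, passed at 12 h under all 4.

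Level and promoter letters were set beside the dose difference as a description. The 10 members with the highest FPKM in DMSO, NPM1, NCL and FBL among them, had a median dose difference of -0.79, against -1.73 for the other 32. For a correlation, DMSO level was taken as log2(FPKM + 1) of the mean of the 2 lines. Across the 42 members its Pearson's r with the dose difference was 0.319 and Spearman's rho 0.327. These genes share the same libraries and are no independent replicates. The 16 members with an E-box had medians of -1.50 between the doses and 0.58 at 6 h of 50 nM. The 20 matched members without one had -1.65 and 0.38.

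Most other genes of the pathway, from a list made by function, were also called lower at 200 nM as deposited. Few genes of cytosolic ribosomal proteins were. The list results under the other scalings are not given. Under those scalings the members called lower between the doses numbered 22, 17 and 18, against 31 as deposited. Of the other ribosome biogenesis factors, all of which were tested, 66 (61.7%) were called lower and 1 (0.935%) higher between the doses. Their median was -1.10. Of all genes 21.9% were called lower and 2.94% higher there. Among these factors BRIX1, a large-subunit assembly factor, had the largest fall of those named here (-3.41 ± 0.34, adjusted p = 0.000896). RIOK2, a kinase of late small-subunit precursors (-2.66 ± 0.23, adjusted p = 0.000639), and RRP36 (-2.15 ± 0.19, adjusted p = 0.000639) fell too. PPAN was higher at 200 nM (0.71 ± 0.21, adjusted p = 0.0458). Against DMSO 68 (63.6%, against 35.3% of all genes) were lower at 200 nM, RRP36, DDX52 and DDX47 with the smallest adjusted p. Higher was 1 (0.935%, against 3.22% of all genes), TSR2 (0.58 ± 0.18, adjusted p = 0.0379). At 6 h of 50 nM 2 rose (1.87%, against 0.692% of all genes). These were NOL9 (1.05 ± 0.20, adjusted p = 0.031) and DDX31 (1.11 ± 0.22, adjusted p = 0.0387). The median of the other factors at that time was 0.20, against 0.46 for the members. Of 84 tested genes of cytosolic ribosomal proteins, 4 (4.76%) were lower and 0 higher between the doses, with a median of -0.17. Of 77 tested genes of mitochondrial ribosomal proteins, 37 (48.1%) were lower, with a median of -0.91. The share of all genes lower in this comparison was 21.9%. No test compared these lists with the members.

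The change at 50 nM, averaged over the 4 times, was also set side by side for the lines. Limma's interaction of line with treatment gave an adjusted p under 0.05 for 6 of 42 members, against 31.2% of all genes. Each line has 1 DMSO library, and the spread came from the 4 times at 50 nM, so the p-values cannot separate a difference of the lines from a deviation of 1 DMSO library. The KYSE510 DMSO library stood apart from its line, and its part in these values was not tested. The TE7 change minus the KYSE510 change was 0.73 for WDR75, 0.65 for PES1, 0.61 for NPM1 and 0.52 for NOLC1. It was -0.82 for BYSL and -1.38 for DDX10. Of these 6, only DDX10 and WDR75 were called under all 9 other settings of pseudocount, locus, filter, scaling and mean trend. The mean change of DDX10 at 50 nM was 1.14 in KYSE510 and -0.24 in TE7.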

How the data were processed

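The authors deposited for each library a table of FPKM by gene, laid out as Cufflinks writes it, per the file headers. The submitters' processing notes name STAR, Cufflinks and hg19, and what is not given in the sources used here is their versions, settings and annotation. The authors' 95% bounds served only to describe precision. The 108 gene identifiers listed at several loci were summed. A table of the whole series was not used because the signs of its exponents are damaged.

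From the deposited FPKM, log2(FPKM + 1) was computed here for the 15610 genes that reached 1 FPKM in 2 or more libraries. It was fitted with limma 3.58.1 in R 4.3.3 (condition plus cell line as the replicate block, mean trend, two-sided, Benjamini-Hochberg adjustment over all genes, threshold 0.05), with 5 residual and 2.86 prior degrees of freedom. The pairing comes from the cell line. The comparison of the lines used 10 libraries, with cell line, hours and treatment by line. The code was tested on simulated data. Values in every library are given for the most abundant members of each role group, those with the largest changes shared by both lines and the smallest dose differences, and other members are given in part, some chosen after their values were seen. The members and lists were chosen with earlier results of these data known. Alternatives were other pseudocounts, filters and scalings, the highest locus, no mean trend, no block and each library left out.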

Additional observations from a re-analysis of the deposited data

Results flagged for a closer look

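The change at 50 nM relative to DMSO had an adjusted p under 0.05 for the limma interaction of line with treatment in 6 members. That is 6 of 42, against 31.2% of all genes. Of the 6, only DDX10 and WDR75 passed under all 9 alternatives that kept every library and the line block. The value, TE7 minus KYSE510 on the log2(FPKM + 1) scale, was -0.82 for BYSL, -1.38 for DDX10, 0.52 for NOLC1, 0.61 for NPM1, 0.65 for PES1 and 0.73 for WDR75. The changes of WDR75 were -0.86 in KYSE510 and -0.14 in TE7, and those of NPM1 0.03 and 0.64. With 1 DMSO library per line and the times at 50 nM standing in as replicates, these p-values cannot separate a difference of the lines from a deviation of 1 DMSO library. The DMSO library of KYSE510 stood apart from the rest of its line, and its part in these values was not tested.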

How the results depend on the processing

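With other settings the fall from 50 to 200 nM kept its direction in every called member under the 3 scalings, and 13 of its 31 calls passed under all 22 alternatives. Of the 25 calls at 200 nM against DMSO 7 did, of the 11 at 12 h 2 did (GNL3 and NOP56), and of the 3 at 6 h 0 did. Members called higher at 6 h of 50 nM numbered 1 with no filter, 1 with a mean of at least 5 FPKM, 8 by upper quartile, 0 with equal sums and 0 with no replicate block. At 12 h the higher were 16 by median of ratios, 21 by upper quartile and 1 with no block, and the lower 5 with no filter, 1 by median of ratios, 1 by upper quartile and 3 with no block. At 200 nM against DMSO the higher were 5 by median of ratios and 8 by upper quartile, and the lower 11, 8, 15 with equal sums and 16 with no block. There the members' median reversed to 0.10 by upper quartile. Between the doses the higher were 2 and the lower 17 by upper quartile, and the lower 18 with equal sums. From 6 to 12 h the lower were 5 with a mean of at least 5 FPKM, 0 by upper quartile and 0 with no block. Without the 3 libraries that stood apart, a setting added after seeing the data, DMSO rested on TE7 alone. The members' medians were then 0.32, 0.42, 0.33 and -0.15 at 2, 4, 6 and 12 h of 50 nM. In the line comparison the higher were 2 with no filter, 1 with equal sums and 1 with no mean trend, and the lower 1 with no filter and 1 by upper quartile. With each library left out in turn, members higher ranged from 0 to 4 at 2 h, 0 to 6 at 4 h, 0 to 7 at 6 h and 2 to 5 at 12 h, and lower from 3 to 9 at 12 h. At 200 nM against DMSO the higher ranged from 0 to 1 and the lower from 22 to 28, between the doses the lower from 16 to 35, and from 6 to 12 h from 0 to 6. Leaving out a library leaves its condition with 1 library, assumed to vary like the others. The cause of these shifts was not tested. Shares of all genes under the 3 scalings stand with the scaling results above for 6 h, 12 h and 200 nM. For the other settings they are not given. FPKM alone cannot show whether the total RNA per cell changed, read depth is unknown, and each condition rests on 1 library per line.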
